A study of Mus musculus with 24 samples.

Results

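The genes described here are 34 genes of the amino acid and ATF4 stress response, taken from a fixed list of names and found by matching the Ensembl mouse identifiers of the count table to gene symbols. The list was chosen with earlier results of these data known. All 34 were found among the 47069 genes of the table, and all 34 were among the 13419 genes with enough counts to be tested. RNA was sequenced from mouse fetal liver cells taken on day E12.5-13.5 from B6J.129(Cg) mice with the Fezh/J knock-in Gt(ROSA)26Sortm1.1, in which the CAG promoter drives cas9* and EGFP. Every library, control libraries included, came from cells that also carry the transgene sgGata1 and are named Gata1s fetal liver cells, so no group lacks the Gata1 guide. The second transgene was miR-125b in 12 libraries and miR-ctrl in 12. Each arm was sampled after 1 µg/mL doxycycline for 48 h (day 2), for 10 days (day 10) or for 13 days (day 13), and on day 13 after doxycycline had been withdrawn on day 10. This gives 8 groups of 3 libraries, numbered 1 to 3. The series asks how miR-125b acts together with GATA1s, the short form of GATA1, and the labels do not say which transgene doxycycline controls. The labels do not say whether same-group libraries came from separate cultures or animals, so p-values measure only the spread between these libraries, which may be technical.

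ATF4 is a transcription factor whose mRNA is translated more when the initiation factor eIF2 is phosphorylated, which happens when amino acids or heme run short, when unfolded protein builds up in the endoplasmic reticulum, or during viral infection. It dimerizes with C/EBP family proteins such as the Cebpg product and activates genes for amino acid import, amino acid synthesis, mitochondrial folate metabolism and feedback on translation. Because ATF4 is set largely at translation, its mRNA level is only a partial readout, and its targets carry more of the information. In blood-forming cells the same kinase branch is known for matching globin synthesis to heme.

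Before the values, a check of the labels. Arid3a, the miR-125b target that the title of the series names, stood at 45.4, 57.5 and 53.7 CPM (read counts scaled to library size) in the miR-125b libraries labelled day 13 and at 49.5, 61.5 and 71.9 in their controls. In the libraries labelled as withdrawn it stood at 31.4, 35.6 and 26.7 CPM with miR-125b and at 68.1, 64.1 and 76.3 in the controls. So on day 13 Arid3a lay below the controls in the miR-125b libraries labelled as withdrawn and overlapped the controls in those labelled as continued, and every direction below that involves day 13 refers to libraries as labelled. Whether the day 13 and withdrawal labels were exchanged in the miR-125b arm was not tested. With exchanged labels the directions of the withdrawal comparison in that arm would turn. Comparisons of day 13 miR-125b libraries with day 10 or controls, and differences built on them, would then belong to the other treatment. Gata1, the gene the guide is named for, was read in all libraries, at 194 to 514 CPM, but a gene count does not show an edit. Total counts ran from 14694900 to 23755245 per library, and no pair of same-group libraries agreed within sampling noise. All 11 megakaryocyte markers and 10 erythroid markers but Slc4a1, which was at 0, were detected in each group, while 6 hepatocyte markers together reached at most 4.88 CPM, with Ttr and Serpina1a at 0, and 5 lymphoid markers at most 0.703 CPM. In bulk RNA, fewer cells of a type and less RNA per cell cannot be told apart.

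ATF4 dimers bind the C/EBP-ATF response element, searched here as TGATGNAA on both strands, where N is any base. The windows span 250 bases before to 50 after each RefSeq start site on GRCm38.p6, 300 bases in all, and the table held at least 1 window for 30 of the 34 genes (Aldh1l2, Slc7a5, Cth and Eif4ebp1 had no entry). The element was in a window of 9 of those 30 genes (30%), and in 4.51% of the 27025 genes of the whole table. Read per window, 9 of 36 held it (25%), beside 3.97% of 32851 windows of the same length. The genes were listed as amino acid and ATF4 response genes, so a higher share is not independent of how they were chosen. The 9 genes are shown because their values are followed as a subgroup further on; each 30-base stretch is written 5′ to 3′ on the strand of the gene, and capitals mark the element, which is read on the opposite strand where it begins with TT.
Asns, chr6:7693214-7693243: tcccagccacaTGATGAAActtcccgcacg
Atf3, chr1:191183425-191183454: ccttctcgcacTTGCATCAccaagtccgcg
Chac1, chr2:119351038-119351067: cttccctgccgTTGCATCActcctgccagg
Got1, chr19:43524689-43524718: cattgcattggTTGCATCAtacaagcctcc
Nupr1, chr7:126625562-126625591: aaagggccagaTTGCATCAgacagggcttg
Pycr1, chr11:120643833-120643862: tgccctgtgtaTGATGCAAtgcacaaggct
Slc7a11, chr3:50443642-50443671: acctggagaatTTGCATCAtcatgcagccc
Slc7a11, chr3:50443661-50443690: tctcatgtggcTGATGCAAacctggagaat
Trib3, chr2:152344028-152344057: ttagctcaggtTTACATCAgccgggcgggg
Vldlr, chr19:27216809-27216838: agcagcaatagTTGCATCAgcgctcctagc

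Of these, the Asns element begins 23 bases before the start site and the Trib3 element at base 15 after it. Those of Atf3 and Nupr1 both begin 110 bases before the start, and Slc7a11 holds a pair, 47 and 66 bases before it. A match is a description of letters and not of binding.

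The microRNA itself is shown with its seed, bases 2 to 8, in capitals, as RefSeq gives it for both mouse loci.
mmu-miR-125b-5p: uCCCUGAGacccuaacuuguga
The DNA letters that pair with this seed, CTCAGGG, were present in the longest GENCODE M21 3′ UTR of 6 of the 34 genes (17.6%), beside 13.1% of 21037 genes: Atf5, Pycr1, Slc7a11, Slc7a1, Cbs and Eif4ebp1. Atf5 and 1 of the matches in Cbs have the longer form that ends in A, and the Atf5 match and its surroundings are shown because Atf5 is the stress regulator among the 6.
Atf5, chr7:44812660-44812667, minus strand: aagcaaggccCTCAGGGAactggaggag

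Levels per kilobase of exon, averaged over the 24 libraries, spanned more than 3 orders of magnitude. The highest were Shmt2 (139 CPM per kb), the mitochondrial serine hydroxymethyltransferase that feeds one-carbon units to folate, Atf4 (135), Ddit4 (121), an inhibitor of mTORC1 signalling also known as REDD1, and Phgdh (118), the first enzyme of serine synthesis. Psat1, the next serine enzyme, followed at 86.1 and Asns, asparagine synthetase, at 81.1 CPM per kb. In all, 18 genes lay at 10 CPM per kb or above, 12 between 1 and 10, and 4 under 1. These 4 were Nupr1 (0.475), a small stress-induced chromatin protein, Atf3 (0.26), a transcription factor induced by stress, Aldh1l2 (0.0603), a mitochondrial folate enzyme, and Cbs (0.0454), cystathionine beta-synthase. Their raw counts were as low as 1 for Aldh1l2 and Cbs, 3 for Atf3 and 4 for Nupr1 in a library, so counting error alone is large in them. The 8 group means of a gene differed by no more than 1.5-fold for 21 genes and no more than 2-fold for 29. The widest span of group means among well expressed genes was that of Ddit4, 2.87-fold.

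**Figure D1:**
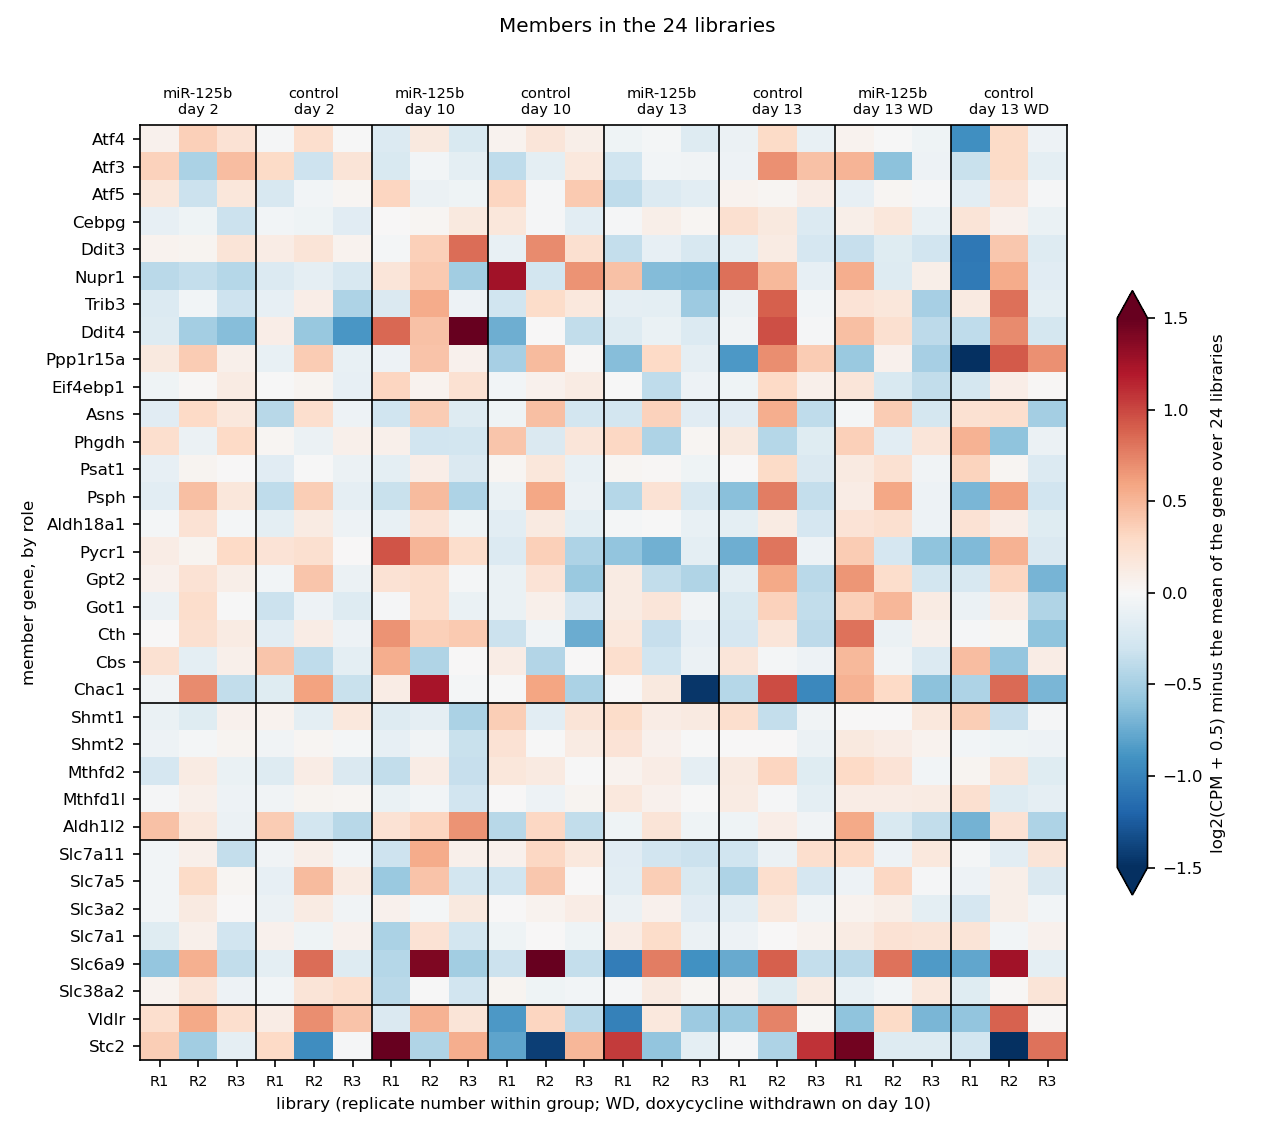
Level of each of the 34 genes (rows, by role) in each of the 24 libraries (columns, by group and replicate number), as log2(CPM + 0.5) minus the mean of the gene over all libraries; red is above and blue below that mean, and WD marks withdrawal. Ddit4 is highest in replicate 3 of the miR-125b libraries of day 10, at 617 CPM, and the replicate 2 columns are red for Slc6a9, Psph and Vldlr in every group.

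The replicate number held about as large a share of the variance of these genes as the groups did. Of the variance of log2 CPM over the 24 libraries, the median gene of the list had 32.1% between the 3 replicate numbers and 32.6% between the 8 groups, beside 18.3% and 36.5% over all genes tested. The number took a larger share than the group in 17 of 34 genes (50%), and in 31.2% of all genes. The shares are not adjusted for the number of classes. Without any effect, 8 groups would take a larger share than 3 numbers. Slc6a9, the glycine transporter GlyT1, was the extreme, with 85.6% of its variance between numbers and a mean of 32 CPM in replicate 2 beside 10.3 in replicate 1 and 10.9 in replicate 3. Replicate 2 was the highest library in all 8 groups for 7 genes (20.6%, and 6.33% of all genes): Slc6a9, Asns, Psph of serine synthesis, Slc7a5, the transporter LAT1, Vldlr, a lipoprotein receptor, Ppp1r15a, the phosphatase subunit GADD34 that reverses eIF2 phosphorylation, and Got1, the cytosolic aspartate aminotransferase. Phgdh went the other way, lowest in replicate 2 in all 8 groups, with means of 348, 237 and 296 CPM in replicates 1, 2 and 3. Summed megakaryocyte markers were also highest in replicate 2 in 7 of 8 groups, at 5193 to 7276 CPM beside 2819 to 4451 in replicate 1 and 3325 to 6213 in replicate 3, and summed mast cell and basophil markers stood at 135 to 374 CPM in replicate 2 and at 29.9 to 270 CPM elsewhere. Summed erythroid markers were lowest in replicate 2 in all 8 groups, at 278 to 510 CPM beside 383 to 667 in the other replicates, and 5 summed endothelial markers, of which Emcn was at 0, were highest there in all 8, at 184 to 219 CPM beside 124 to 167. The part of any of these cells in the replicate pattern was not tested.

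**Figure D2:**
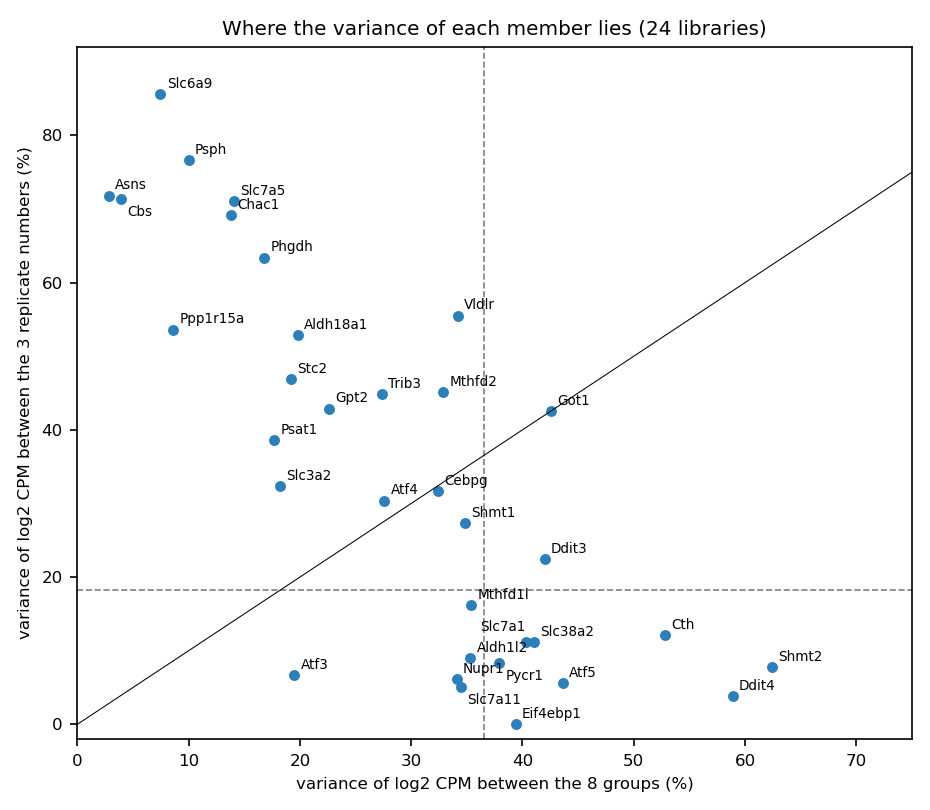
Share of the variance of log2 CPM that lies between the 8 groups (x axis, percent) and between the 3 replicate numbers (y axis, percent) for each of the 34 genes; dashed lines are the medians of all genes tested, 36.5% and 18.3%, and the solid line marks equal shares. Slc6a9, Psph, Asns, Cbs and Slc7a5 sit at the upper left, while Shmt2, Ddit4 and Cth sit at the lower right.

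Because same-numbered libraries deviated together across groups, 2 fits are given: edgeR's quasi-likelihood test with 1 term per group, which is the design set for this comparison, and the same test with the replicate number as a block. A gene is called at an adjusted p (Benjamini-Hochberg over all 13419 genes) under 0.05. Without the block, none of the 34 genes was called in any of 15 comparisons. Values follow in CPM, always in the order of replicates 1, 2 and 3.

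The transcription factors first. Atf4 stood at 328, 401 and 365 CPM on day 2, 271, 347 and 268 on day 10, 299, 308 and 275 on day 13 and 325, 312 and 299 after withdrawal with miR-125b. Control libraries held Atf4 at 310, 374 and 313 CPM, then 326, 356 and 332, then 294, 381 and 289, and 166, 383 and 298 after withdrawal. The arms overlapped at every time, and the lowest library of all was replicate 1 of the withdrawn controls, which was also lowest of all for Ddit3 and Ppp1r15a. The log2 difference of Atf4 between arms was 0.13 ± 0.19 (SE) at day 2 and -0.19 ± 0.19 at day 10, neither called. Ddit3 stood at 13.5, 13.3 and 14.9 CPM on day 2, 12.7, 16.7 and 23.6 on day 10, 9.97, 11.9 and 10.9 on day 13 and 10.1, 11.4 and 10.5 after withdrawal with miR-125b. Control libraries held Ddit3 at 14, 14.9 and 13.5 CPM, then 12, 21.5 and 15.4, then 11.7, 14.1 and 10.8, and 5.91, 17.3 and 11.3 after withdrawal. Ddit3 encodes CHOP, a partner of ATF4 in prolonged stress, and its miR-125b libraries of day 10 all lay above those of day 13, where 26.7% of all genes did not overlap. Trib3 stood at 21.4, 24.2 and 19.9 CPM on day 2, 21.3, 36.7 and 23.5 on day 10, 22.6, 22.4 and 16.8 on day 13 and 28.8, 28 and 17.5 after withdrawal with miR-125b. Control libraries held Trib3 at 22.8, 26.7 and 17.9 CPM, then 20.1, 30.2 and 27.8, then 23.3, 46.5 and 24.1, and 27.3, 44.3 and 22.3 after withdrawal. Trib3 is a pseudokinase that feeds back on ATF4, and with miR-125b at day 13 all 3 libraries lay below the controls. The same held for Atf5 and Ddit4, so that 3 of 34 genes did not overlap between the arms at day 13, beside 8.52% of all genes. Atf5 stood at 20.5, 14.5 and 20.6 CPM on day 2, 22.9, 17.1 and 17.4 on day 10, 13.8, 15.7 and 16.3 on day 13 and 16.6, 18.5 and 18 after withdrawal with miR-125b. Control libraries held Atf5 at 15.3, 17.6 and 18.6 CPM, then 22.8, 17.9 and 24.1, then 18.9, 18.5 and 19.7, and 16.3, 21 and 18 after withdrawal. Atf5 is a bZIP factor translated like ATF4, and its day 13 libraries with miR-125b were the lower ones against both the controls and the withdrawn libraries, without overlap (9.02% of all genes in the latter comparison). Cebpg stood at 51, 53.1 and 44.2 CPM on day 2, 55.5, 56.7 and 61.6 on day 10, 54.8, 59.1 and 56.5 on day 13 and 58.8, 62.3 and 51.5 after withdrawal with miR-125b. Control libraries held Cebpg at 54, 53.2 and 49.4 CPM, then 62.6, 54.8 and 49.7, then 65.7, 61.4 and 48.1, and 63.3, 57.8 and 51.8 after withdrawal. Cebpg, the dimer partner, kept within 44.2 to 65.7 CPM. With miR-125b its day 10 libraries all lay above those of day 2, where 19% of all genes did not overlap. Atf3 stood at 0.81, 0.243 and 0.919 CPM on day 2, 0.383, 0.507 and 0.432 on day 10, 0.336, 0.503 and 0.497 on day 13 and 0.974, 0.175 and 0.48 after withdrawal with miR-125b. Control libraries held Atf3 at 0.759, 0.333 and 0.684 CPM, then 0.292, 0.429 and 0.651, then 0.478, 1.16 and 0.894, and 0.318, 0.764 and 0.43 after withdrawal. These Atf3 values rest on 3 to 19 counts per library, and the arms overlapped at every time. Nupr1 stood at 0.694, 0.73 and 0.674 CPM on day 2, 1.28, 1.57 and 0.594 on day 10, 1.63, 0.503 and 0.497 on day 13 and 1.79, 0.875 and 1.17 after withdrawal with miR-125b. Control libraries held Nupr1 at 0.867, 0.934 and 0.83 CPM, then 3.26, 0.805 and 2.01, then 2.29, 1.71 and 0.95, and 0.254, 1.82 and 0.904 after withdrawal. Its lowest and highest values, 0.254 and 3.26 CPM, were both in control libraries.

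Among the targets, the asparagine, serine and folate enzymes Asns, Psat1, Phgdh and Mthfd2 had a larger share of their variance between replicate numbers than between groups. Asns stood at 193, 267 and 243 CPM on day 2, 176, 282 and 189 on day 10, 179, 276 and 193 on day 13 and 213, 282 and 181 after withdrawal with miR-125b. Control libraries held Asns at 162, 259 and 206 CPM, then 208, 297 and 179, then 192, 318 and 166, and 254, 259 and 152 after withdrawal. Groups overlapped everywhere, and the share of variance between groups was 2.83%. Psat1 stood at 333, 376 and 366 CPM on day 2, 330, 389 and 312 on day 10, 371, 368 and 347 on day 13 and 399, 428 and 352 after withdrawal with miR-125b. Control libraries held Psat1 at 324, 362 and 342 CPM, then 371, 409 and 338, then 365, 445 and 312, and 460, 373 and 316 after withdrawal. Psat1 varied by 1.48-fold between its lowest and highest library. Phgdh stood at 344, 272 and 354 CPM on day 2, 304, 236 and 238 on day 10, 356, 209 and 293 on day 13 and 368, 258 and 326 after withdrawal with miR-125b. Control libraries held Phgdh at 295, 271 and 303 CPM, then 384, 247 and 326, then 320, 214 and 254, and 413, 189 and 272 after withdrawal. The day 10 difference between arms for Phgdh was -0.30 ± 0.24 and was not called in either fit (adjusted p = 0.586, and 0.153 with the block). Mthfd2 stood at 107, 139 and 119 CPM on day 2, 98.5, 138 and 100 on day 10, 132, 137 and 116 on day 13 and 156, 147 and 124 after withdrawal with miR-125b. Control libraries held Mthfd2 at 111, 137 and 109 CPM, then 143, 140 and 127, then 140, 159 and 112, and 131, 146 and 112 after withdrawal. Mthfd2 is a mitochondrial folate enzyme that ATF4 activates, and at day 10 it lay 0.29 ± 0.15 lower with miR-125b, with an adjusted p of 0.341, and 0.0548 with the block. Aldh1l2 stood at 0.752, 0.535 and 0.368 CPM on day 2, 0.575, 0.659 and 0.973 on day 10, 0.384, 0.559 and 0.386 on day 13 and 0.866, 0.292 and 0.213 after withdrawal with miR-125b. Control libraries held Aldh1l2 at 0.705, 0.267 and 0.195 CPM, then 0.194, 0.644 and 0.217, then 0.382, 0.489 and 0.391, and 0.0636, 0.573 and 0.172 after withdrawal. These Aldh1l2 values rest on 1 to 18 counts per library.

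The group means of the transporters Slc7a5, Slc7a11, Slc3a2, Slc7a1 and Slc38a2 differed by 1.09-fold to 1.38-fold, those of Slc6a9 by 1.75-fold and those of Chac1 by 1.87-fold. Slc7a5 stood at 256, 321 and 269 CPM on day 2, 178, 354 and 218 on day 10, 236, 340 and 225 on day 13 and 250, 327 and 259 after withdrawal with miR-125b. Control libraries held Slc7a5 at 242, 367 and 287 CPM, then 213, 347 and 263, then 190, 314 and 220, and 249, 279 and 227 after withdrawal. LAT1 takes up leucine and other large neutral amino acids in exchange for glutamine, and replicate 2 was the highest library in all 8 groups. Slc7a11 stood at 17.4, 19 and 13.9 CPM on day 2, 14.4, 26.7 and 19 on day 10, 15.9, 14.6 and 14.3 on day 13 and 22.2, 17.1 and 20.2 after withdrawal with miR-125b. Control libraries held Slc7a11 at 17.3, 19.1 and 17.4 CPM, then 18.9, 22.5 and 20.2, then 14.5, 16.9 and 21.6, and 17.6, 16 and 20.7 after withdrawal. Slc7a11 is the cystine and glutamate exchanger, and at day 13 its 3 libraries of continued doxycycline with miR-125b lay below the 3 of withdrawal. Chac1 stood at 5.84, 10.2 and 4.59 CPM on day 2, 6.58, 15 and 5.94 on day 10, 6.09, 6.76 and 1.88 on day 13 and 8.88, 7.58 and 3.79 after withdrawal with miR-125b. Control libraries held Chac1 at 5.26, 9.47 and 4.69 CPM, then 6.03, 9.34 and 4.23, then 4.39, 12.4 and 2.85, and 4.26, 11.3 and 3.57 after withdrawal. Chac1 degrades glutathione and is among the most stress-responsive ATF4 targets, and replicate 3 was its lowest library in all 8 groups. The heavy chain Slc3a2, the cationic transporter Slc7a1 and the neutral amino acid transporter Slc38a2 ranged over 185 to 245, 101 to 170 and 138 to 218 CPM across the 24 libraries.

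At day 10, miR-125b libraries differed from controls in 3 of the 34 genes, in the blocked fit. Without the block 0 of 34 were called, where 0.872% of all genes were, and 4 had an unadjusted p under 0.05, beside 17.4% of all genes. With the block 2 genes rose and 1 fell, 3 of 34 beside 8.63% of all genes, so the share in the list was near that of the genome. DESeq2 called 3 genes, with a genome share of 4.30%, and the newer dispersion estimate of edgeR called none. Over the list, 17 genes were higher and 17 lower, with a median log2 difference of -0.014 and 0.0042 over all genes.

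Ddit4 stood at 169, 135 and 124 CPM on day 2, 350, 262 and 617 on day 10, 169, 179 and 167 on day 13 and 263, 227 and 147 after withdrawal with miR-125b. Control libraries held Ddit4 at 207, 130 and 105 CPM, then 116, 193 and 149, then 186, 378 and 191, and 148, 316 and 161 after withdrawal. With miR-125b all 3 libraries of day 10 lay above all 3 controls, at a mean of 410 ± 185 (SD, n = 3) against 153 ± 39.1. The log2 fold change was 1.42 ± 0.37 (SE; edgeR adjusted p = 0.0737), and 1.48 ± 0.39 with the block (adjusted p = 0.0321). Cth stood at 7.46, 8.86 and 8.09 CPM on day 2, 12.1, 9.64 and 9.89 on day 10, 8.34, 5.7 and 6.79 on day 13 and 13.4, 6.94 and 7.84 after withdrawal with miR-125b. Control libraries held Cth at 6.56, 8.07 and 6.98 CPM, then 5.83, 7.14 and 4.23, then 6.16, 8.5 and 5.53, and 7.31, 7.59 and 4.69 after withdrawal. Cth makes cysteine from cystathionine, and its day 10 groups did not overlap either. It lay 0.88 ± 0.26 higher (edgeR adjusted p = 0.0929), and 0.89 ± 0.23 with the block (adjusted p = 0.0209). Shmt2 stood at 408, 424 and 444 CPM on day 2, 398, 416 and 343 on day 10, 497, 450 and 429 on day 13 and 478, 466 and 448 after withdrawal with miR-125b. Control libraries held Shmt2 at 416, 442 and 422 CPM, then 503, 429 and 470, then 434, 432 and 405, and 420, 412 and 409 after withdrawal. Shmt2 was lower at day 10 without overlap, by little in the pair of replicate 2 and by more in the other pairs. Its log2 fold change was -0.28 ± 0.079 (edgeR adjusted p = 0.0847), and -0.28 ± 0.077 with the block (adjusted p = 0.0296).

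The 3 genes that did not overlap between arms at day 10 were these same genes, where 19.7% of all genes did not overlap. Each blocked call was lost when replicate 1 or replicate 3 was left out of all groups, with adjusted p from 0.0202 to 0.542 for Ddit4, 0.0104 to 0.504 for Cth and 0.0271 to 0.559 for Shmt2. Neutrophil and macrophage markers, summed over 10 genes, stood at 113, 49.5 and 86.3 CPM in the miR-125b libraries of day 10 and at 30.7, 28.9 and 40.6 in the controls, and their part in these differences was not tested. At day 2 the arms did not overlap for 1 gene, Nupr1, which lay lower with miR-125b, beside 12.3% of all genes. No gene of the list was called at day 2 without the block (0% of all genes called), with it (0%) or by DESeq2 (0.0373%). In edgeR, unadjusted p was under 0.05 for 0 genes without the block and 1 with it, beside 5.28% and 9.16% of all genes. At day 13 no gene of the list was called without the block (0% of all genes called), with it (0.0149%) or by DESeq2 (0.0224%). Unadjusted p was then under 0.05 for 0 genes without the block and 3 with it, beside 2.89% and 6.37% of all genes.

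**Figure D3:**
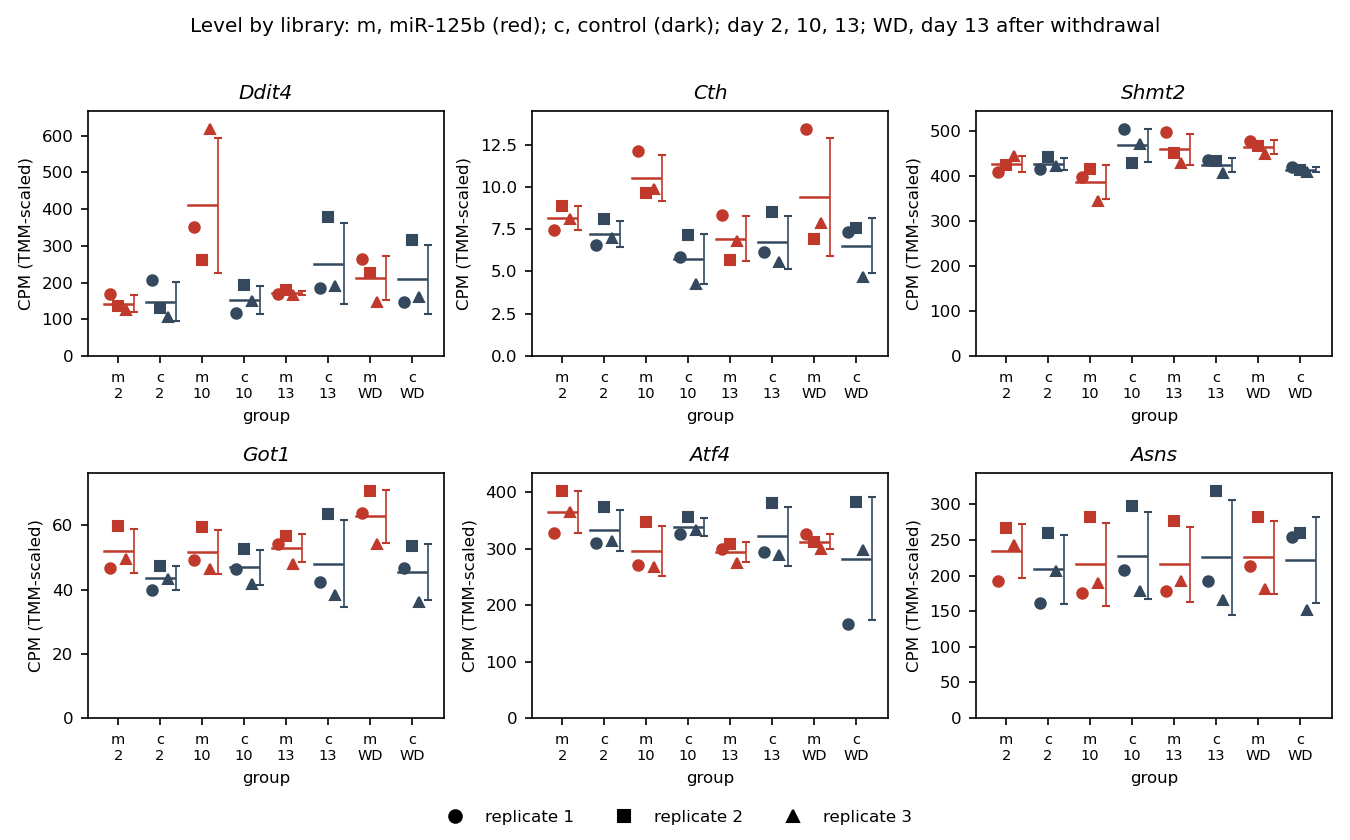
CPM in each library for 6 genes, by group (m, miR-125b, red; c, control, dark; 2, 10 and 13 are days; WD, day 13 after withdrawal); symbols mark the replicate number, horizontal lines the group mean and error bars the SD of 3 libraries. Ddit4 in the miR-125b libraries of day 10 lies at 262 to 617 CPM above controls at 116 to 193, and Asns is highest in replicate 2 in every group.

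From day 10 to day 13 under continued doxycycline, as labelled, the miR-125b libraries changed in 6 genes of the list in the blocked fit. Without the block 0 of 34 were called beside 3.53% of all genes, with 11 at an unadjusted p under 0.05 (20.5% of all genes), 3 calls by DESeq2 (Ddit4, Pycr1 and Shmt2; 7.59% of all genes) and 0 by the newer edgeR estimate. With the block, 2 rose and 4 fell, 6 of 34 beside 13.4% of all genes. Ddit4 fell by 1.30 ± 0.39 on the log2 scale (edgeR with block, adjusted p = 0.0399). Ddit3 fell by 0.68 ± 0.22 (adjusted p = 0.0446) and Chac1 by 0.90 ± 0.28 (adjusted p = 0.0367) in the same fit. Shmt2 rose by 0.25 ± 0.077 (edgeR with block, adjusted p = 0.0354). Shmt1, its cytosolic counterpart, rose by 0.44 ± 0.13 (edgeR with block, adjusted p = 0.0332).

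Shmt1 stood at 77, 72.5 and 86.3 CPM on day 2, 71.6, 74.6 and 58.9 on day 10, 100, 88.8 and 90.5 on day 13 and 82.3, 82.9 and 92.2 after withdrawal with miR-125b. Control libraries held Shmt1 at 85.4, 74.1 and 91.7 CPM, then 106, 73.7 and 94.4, then 98.4, 64.3 and 79.5, and 106, 64.5 and 81.5 after withdrawal. The miR-125b libraries of day 10 were the lowest group of Shmt1 and lay wholly below those of day 13. Vldlr stood at 79.5, 99 and 79.3 CPM on day 2, 56.9, 95.3 and 76.3 on day 10, 32.6, 74.4 and 45.3 on day 13 and 43.5, 81.2 and 41.1 after withdrawal with miR-125b. Control libraries held Vldlr at 71.9, 108 and 89.9 CPM, then 36.3, 83.5 and 49.9, then 45.1, 112 and 68.1, and 43.9, 123 and 67.3 after withdrawal. Vldlr fell by 0.64 ± 0.16 between day 10 and day 13 with miR-125b (edgeR with block, adjusted p = 0.0171), while in the controls it stood 0.40 ± 0.16 higher at day 13, which was not called (adjusted p = 0.696). Pycr1, the last enzyme of proline synthesis, stood at 26.2, 19.2 and 16.1 CPM at day 10 and at 8.68, 7.88 and 12 at day 13 with miR-125b. These Pycr1 libraries did not overlap, and the change of -1.11 ± 0.36 missed the threshold in edgeR (adjusted p = 0.0847, and 0.0503 with the block).

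Of the 34 genes, 10 did not overlap between these groups, where 26.7% of all genes did not: Shmt1, Shmt2 and Mthfd1l lay higher at day 13, and Ddit3, Ddit4, Cth, Pycr1, Atf5, Aldh1l2 and Eif4ebp1 lower. Each of the 6 blocked calls was lost without at least 1 of the 3 replicate numbers, and those of Ddit3 and Shmt2 without any 1 of them. Cell type markers were also uneven between the same libraries. Summed erythroid markers went from 506, 278 and 383 CPM at day 10 to 641, 510 and 590 at day 13, without overlap. Megakaryocyte markers went from 4175, 5693 and 5213 to 2819, 5331 and 3737 CPM, and neutrophil and macrophage markers from 113, 49.5 and 86.3 to 40.4, 42.4 and 59.2, lower in all 3 pairs. Their part in these changes was not tested. In the controls, between the same days, no gene was called without the block (0.0224% of all genes called), with it (0.0373%) or by DESeq2 (0.119%). EdgeR gave an unadjusted p under 0.05 to 0 genes without the block and 3 with it, beside 3.51% and 6.39% of all genes.

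Between day 2 and day 10, 1 gene of the list rose with miR-125b in the blocked fit. This was Ddit4, by 1.56 ± 0.39 (edgeR with block, adjusted p = 0.0401), where 4.08% of all genes were called. Without the block 0 genes were called (0.224% of all genes), with 2 at an unadjusted p under 0.05 beside 14.9% of all genes. DESeq2 called 1, the same gene (2.25% of all genes). In the controls no gene was called without the block (0% of all genes called), with it (0.149%) or by DESeq2 (0.373%). The controls had 1 gene at an unadjusted p under 0.05 without the block and 4 with it, beside 6.75% and 11.7% of all genes. The Ddit4 call was lost without any 1 of the 3 replicate numbers. The day 2 and day 10 libraries with miR-125b are also part of the comparisons above, so these values are not separate evidence.

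No gene of the list was called in any comparison of withdrawn with continued doxycycline. With miR-125b, 30 of 34 genes were higher in the libraries labelled as withdrawn than in those of continued doxycycline, where 50.7% of all genes were higher, and the median log2 difference was 0.15 beside 0.002 over all genes. With exchanged labels in that arm, 30 of 34 would be lower. In the controls 13 of 34 were higher, where 52.1% of all genes were, with a median of -0.035 beside 0.0084. The difference between the arms was positive for 28 of 34 genes and for 50.2% of all genes, with a median of 0.20 beside 0.0013 over all genes. Genes of a pathway are not replicates, so these counts describe 3 libraries against 3 in each arm. The list was also chosen with earlier results of these data known. In the miR-125b arm summed erythroid markers were lower in the withdrawn library of all 3 pairs, at 548, 434 and 507 CPM beside 641, 510 and 590, as they were in the controls, at 410, 365 and 615 beside 542, 420 and 667. Neutrophil and macrophage markers stood at 69.1, 68.3 and 55.5 CPM in the withdrawn miR-125b libraries beside 40.4, 42.4 and 59.2, and the part of these cells was not tested. No gene was called in the miR-125b arm by edgeR without the block (0% of all genes called), with it (0.0522%) or by DESeq2 (0.0522%). Unadjusted p was under 0.05 there for 1 gene without the block and 4 with it, beside 2.21% and 4.75% of all genes. For the difference between arms the 3 methods also called 0 genes of the list, and 0% of all genes. That difference had 0 and 2 genes at an unadjusted p under 0.05 in the 2 edgeR fits, beside 1.68% and 3.26% of all genes. In the controls 0 genes were called by any of the 3, beside 0%, 0.00745% and 0.0597% of all genes. At an unadjusted p under 0.05 the controls had 0 genes in either edgeR fit, beside 2.65% and 4.53% of all genes. Averaged over both arms 22 of 34 genes were higher after withdrawal, beside 52% of all genes. With single libraries left out this count ran from 13, without replicate 2 of the withdrawn controls, to 26. For that average none was called by edgeR without the block (0% of all genes called), with it (0%) or by DESeq2 (0.0298%). Its unadjusted p was under 0.05 for 0 genes without the block and for 1 with it, Aldh18a1 of proline synthesis. The shares of all genes were 3.06% and 5.71%.

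The gene with the lowest p in the miR-125b arm without the block was Slc7a11, which went from 15.9, 14.6 and 14.3 CPM to 22.2, 17.1 and 20.2. Its log2 difference was 0.41 ± 0.19 (edgeR adjusted p = 1.000), beside 0.034 ± 0.19 in the controls. Slc7a11 and Atf5 were the 2 genes of the list whose groups did not overlap, where 9.02% of all genes did not. Atf5 differed by 0.21 ± 0.15, from 13.8, 15.7 and 16.3 to 16.6, 18.5 and 18 CPM. In all 3 same-numbered pairs 16 genes were higher after withdrawal and 0 were lower, beside 17.1% and 15.5% of all genes. In the controls 1 gene was higher in all 3 pairs and 6 were lower, beside 14.6% and 13.5%. The 16 include Atf4 and Trib3, the amino acid enzymes Psat1, Phgdh, Psph, Aldh18a1, Got1, Gpt2 and Cth, and the glutathione enzyme Chac1. Gpt2, the mitochondrial alanine aminotransferase, stood at 14.7, 10.3 and 9.66 CPM under continued doxycycline and at 21.6, 16.2 and 11 after withdrawal. Its difference was 0.49 ± 0.29, and 0.71 ± 0.41 against the change in the controls (edgeR adjusted p = 1.000, and 0.999 with the block). Asns itself differed by 0.061 ± 0.29, and Ppp1r15a, Shmt1, Slc38a2 and Ddit3 were the 4 genes that were lower.

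Single libraries set part of this pattern. Leaving out each of the 6 libraries in turn left 24 to 30 of 34 genes higher in the miR-125b arm, with medians from 0.075 to 0.25. In the controls the count ran from 9 to 22, and without replicate 2 of the day 13 controls the median difference between arms was 0.031 instead of 0.20.

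**Figure D4:**
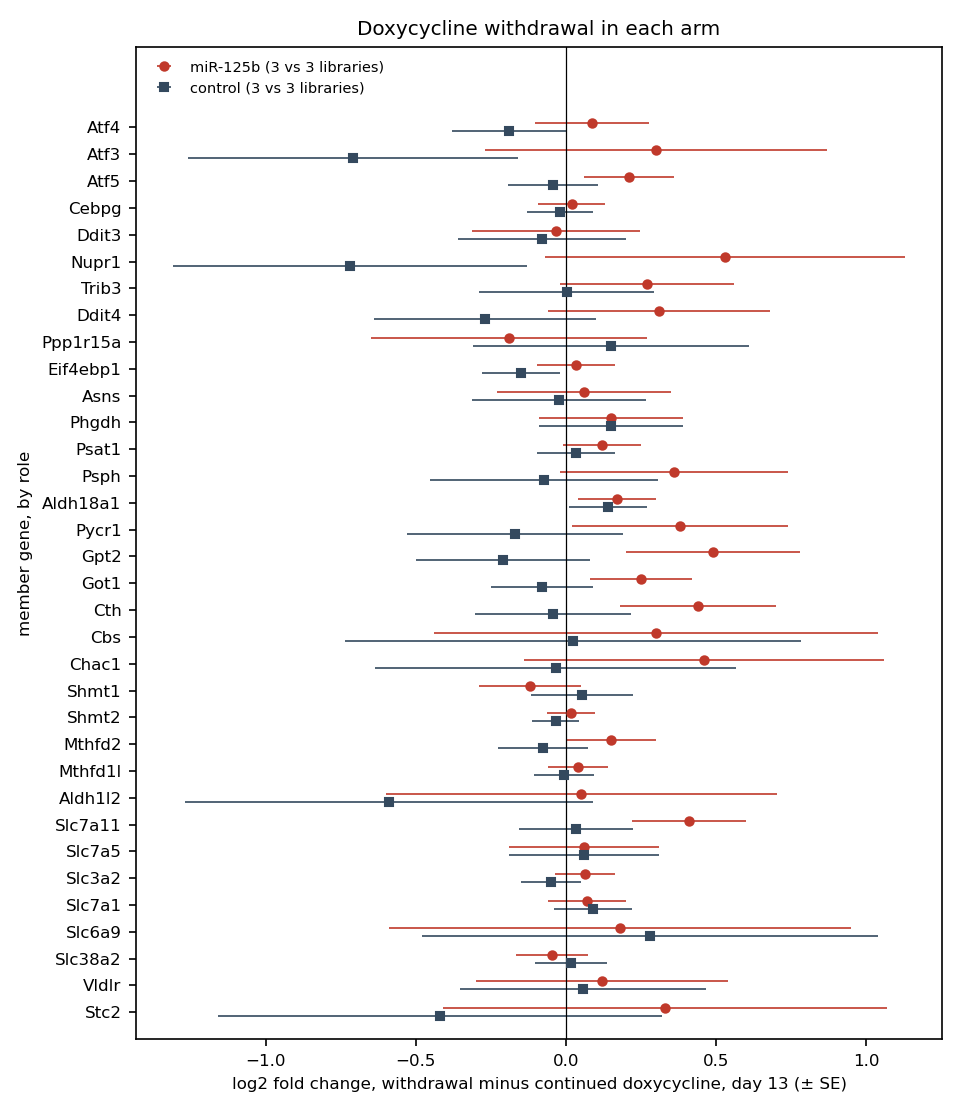
Log2 fold change of each of the 34 genes between the libraries labelled as withdrawn and those of continued doxycycline on day 13 (x axis; bars are ± SE from the edgeR fit without the block) in the miR-125b arm (red circles) and in controls (dark squares), 3 libraries in each group. In the miR-125b arm 30 of 34 points lie above 0 and in controls 13 of 34, and most bars cross 0.

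In the libraries labelled as withdrawn, the arms differed from each other in 1 gene, in the blocked fit. Got1 stood at 46.6, 59.9 and 49.7 CPM on day 2, 49.3, 59.5 and 46.3 on day 10, 54.2, 56.6 and 48 on day 13 and 63.8, 70.6 and 54.1 after withdrawal with miR-125b. Control libraries held Got1 at 39.8, 47.3 and 43.4 CPM, then 46.5, 52.6 and 41.8, then 42.4, 63.6 and 38.3, and 46.7, 53.6 and 36.2 after withdrawal. Got1 interconverts aspartate and glutamate, and aspartate is the carbon skeleton of asparagine. In the withdrawn libraries all 3 with miR-125b lay above all 3 controls. The difference was 0.47 ± 0.17 (edgeR adjusted p = 0.410), and 0.47 ± 0.10 with the block (adjusted p = 0.0198), in 3 of 3 pairs. This call was lost without replicate 2 or replicate 3, with adjusted p from 0.0439 to 0.284. Without the block 0 of 34 genes were called (0.119% of all genes called), with it 1 of 34 (1.86%), and DESeq2 called 0 (0.709%). At an unadjusted p under 0.05 there were 2 without the block, beside 8.55% of all genes. Shmt2 did not overlap here either, higher with miR-125b by 0.17 ± 0.079 (edgeR adjusted p = 0.582, and 0.303 with the block), where 11.4% of all genes did not overlap. Averaged over the 4 conditions, the blocked fit called 2 genes of the list beside 6.39% of all genes. Got1 was higher with miR-125b by 0.26 ± 0.050 (edgeR with block, adjusted p = 0.00311) and Cth by 0.41 ± 0.11 (edgeR with block, adjusted p = 0.0303). Without the block the average gave 0 calls (1.28% of all genes called), and DESeq2 gave 0 (2.66%). The average had 2 genes at an unadjusted p under 0.05 without the block, beside 12.1% of all genes. The Got1 average was not called without replicate 3 (adjusted p up to 0.108) and that of Cth without replicate 1 or 3 (up to 0.461), in the blocked fit.

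Asked directly, the miR-125b effect differed between day 13 and day 10 for 2 genes in the blocked fit, where 3.85% of all genes were called. Without the block 0 were called (0.0224% of all genes), with 6 at an unadjusted p under 0.05 beside 14.6% of all genes. Vldlr differed by -1.04 ± 0.23 (edgeR with block, adjusted p = 0.0257) and Shmt2 by 0.39 ± 0.11 (edgeR with block, adjusted p = 0.0473). For Ddit4 the same difference was -1.99 ± 0.54 (edgeR with block, adjusted p = 0.0552), and DESeq2 called Ddit4 (adjusted p = 0.0279) and Shmt2, beside 2.37% of all genes. The blocked call was lost without replicate 1 or 3 for Vldlr and without any 1 number for Shmt2. Between day 10 and day 2 the effect differed for 0 genes without the block, with it and by DESeq2 (0% of all genes each). In the edgeR fits 2 and 7 genes had an unadjusted p under 0.05, beside 6.86% and 12% of all genes. Both of these contrasts were chosen after the values had been seen.

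The 9 genes with the TGATGNAA element in a window were all higher after withdrawal in the miR-125b arm, as labelled. Their median log2 difference was 0.30. Over the whole list 30 of 34 were higher, with a median of 0.15, where 50.7% of all genes were higher. Of the 9, Asns, Pycr1 and Vldlr were higher in 2 of the 3 same-numbered pairs and Atf3 in 1, the others in all 3. In the controls 3 of 9 were higher, with a median of -0.035, beside 13 of 34 over the list and 52.1% of all genes. Between the arms, 1 of the 9 was higher with miR-125b at day 13 under continued doxycycline (median -0.57), beside 11 of the 34 and 46.2% of all genes. Replicate 2 was the highest day 13 control library for each of the 9 but Nupr1 and Slc7a11. After withdrawal 6 of 9 were higher with miR-125b (median 0.081), beside 24 of the 34 and 47.7% of all genes. Among the 9, Atf3 and Nupr1 rest on 3 to 19 and 4 to 67 counts per library. These comparisons share libraries, none of the 9 genes was called in them except Got1, and the subgroup was not tested. Its counts were not repeated with single libraries left out. Of the 6 genes with a miR-125b seed match, 2 were lower with miR-125b at day 2, 3 at day 10, 5 at day 13 and 3 after withdrawal. Their medians were 0.027, 0.061, -0.25 and 0.018. In the same comparisons 14, 17, 23 and 10 of the 34 genes were lower. None of the 6 was called in any of these.

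Other genes around the pathway were counted from 4 lists. Of 20 cytosolic aminoacyl-tRNA synthetases, many of which ATF4 activates, 3 rose between day 10 and day 13 with miR-125b without the block, where 3.53% of all genes were called: Rars by 0.48 ± 0.12 (edgeR adjusted p = 0.0346), Farsb by 0.38 ± 0.10 (adjusted p = 0.0353) and Wars by 0.32 ± 0.083 (adjusted p = 0.0400). With the block 6 of 20 rose, beside 13.4% of all genes called. At day 10, where that fit called 8.63% of all genes, Rars and Tars lay lower with miR-125b than in controls in the blocked fit, with log2 differences of -0.37 ± 0.10 and -0.29 ± 0.077 (edgeR adjusted p = 0.0230 and 0.0272). Of 16 eIF2 subunits, exchange factors and kinases, Eif2s1, the alpha subunit that the stress kinases phosphorylate, rose from day 10 to day 13 with miR-125b by 0.35 ± 0.083 (edgeR without the block, adjusted p = 0.0297), and 5 of 16 rose with it. Subunits of the exchange factor eIF2B were among the calls of edgeR with the block, in different comparisons. Eif2b1 lay 0.44 ± 0.094 lower at day 10 with miR-125b than in controls (edgeR adjusted p = 0.00842), where 2 of 16 fell beside 8.63% of all genes called. Eif2b3 rose by 0.41 ± 0.12 from day 10 to day 13 with miR-125b (edgeR adjusted p = 0.0253), where 5 of 16 rose beside 13.4%. Eif2b5 fell by 0.39 ± 0.10 from day 2 to day 10 with miR-125b (edgeR adjusted p = 0.0374), where 1 of 16 fell beside 4.08%. Of 19 tested genes of amino acid, one-carbon and stress metabolism, Sesn2, a leucine sensor and ATF4 target, fell between the same days by 0.58 ± 0.15 (edgeR without the block, adjusted p = 0.0385) and Tyms, thymidylate synthase, rose by 0.43 ± 0.12 (adjusted p = 0.0482). With the block 4 rose and 1 fell in that list, among them Mthfd1, a cytosolic folate enzyme, which rose by 0.56 ± 0.14 (edgeR adjusted p = 0.0120). Gclm, a subunit of the enzyme that starts glutathione synthesis, differed by -0.20 ± 0.039 between the arms over the 4 conditions with the block (edgeR adjusted p = 0.00266), and by -0.21 ± 0.074 without it (adjusted p = 0.212). These 2 fits called 6.39% and 1.28% of all genes.

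Of 21 chaperones and sensors of the endoplasmic reticulum, none was called without the block in any comparison, by edgeR. Between day 2 and day 10 with miR-125b, 8 of the 21 had an unadjusted p under 0.05 without the block, beside 14.9% of all genes. DESeq2 called 2 (2.25% of all genes), and with the block 4 fell and 1 rose, beside 4.08% of all genes called. Pdia3, a disulfide isomerase, fell by 0.43 ± 0.089 (edgeR with block, adjusted p = 0.0131), Hspa5, the chaperone BiP, by 0.63 ± 0.14 (edgeR with block, adjusted p = 0.0189), Hsp90b1 by 0.46 ± 0.11 (adjusted p = 0.0328) and Dnajb11, a partner of BiP, by 0.41 ± 0.11 (adjusted p = 0.0340). The gene that rose was Ern1, the sensor IRE1, named here after its value was seen. Called or not, 19 of the 21 were lower at day 10 with miR-125b (median log2 difference -0.20). The controls also had 19 of 21 lower (median -0.077), with 0 called by edgeR in either fit or by DESeq2. The miR-125b effect of day 10 minus day 2 was called for 0 of the 21 in these fits, with 4 differences positive and 17 negative without the block. No gene of the 4 lists was called in the withdrawal comparison within either arm, by edgeR with or without the block or by DESeq2. At an unadjusted p under 0.05 without the block, the miR-125b arm had 1 synthetase and 3 genes of the amino acid and stress list. The controls had 1 gene of the eIF2 list. The shares of all genes were 2.21% and 2.65% in these arms.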

How the data were processed

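The deposited table holds raw read counts per Ensembl gene for 24 libraries, whole numbers that the authors did not normalize. Per the submitters' processing notes fastp, HISAT2 2.0.5 and featureCounts were used with build mm10; their roles and settings, and the use of strand, are not given in the sources used here. All 24 count columns were matched to samples by their labels.

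The counts were tested with edgeR 4.0.16 (R 4.3.3) in 1 quasi-likelihood fit over all 24 libraries, with TMM scaling, filterByExpr and Benjamini-Hochberg adjustment. The script was checked on simulated counts. DESeq2 1.42.0, other filters and scalings, libraries left out, a replicate block and a newer edgeR dispersion estimate (added after the data were seen) were alternatives. Levels are TMM-scaled CPM, and log2 CPM was used for variance shares.

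Pairing was checked from deviations of the group means: in all 84 pairs of same-numbered libraries the correlation was over 0.1 (0.163 to 0.781, median 0.475), beside a median of -0.304 for different numbers. The labels do not say what a number shares, so the block is printed where it changes a call.

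The 34 genes, the 4 other lists and the marker lists were chosen with earlier results of these data known. Values in every library are given for 16 regulators and targets and for members called in either edgeR fit, and up to 4 called genes of each other list are named, by lowest p. Promoter windows and miRNA sequences are from RefSeq (GRCm38.p6), gene models and 3′ UTRs from GENCODE M21 (GRCm38).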

Additional observations from a re-analysis of the deposited data

Results flagged for a closer look

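In 2 genes the difference between miR-125b and control libraries changed from day 10 to day 13, under continued doxycycline as labelled. Both were called by edgeR's test of the difference with the replicate block, 2 of 34 genes beside 3.85% of all genes. This contrast was chosen after the values had been seen. For Vldlr the miR-125b effect on day 13 differed from that on day 10 by -1.04 ± 0.23 (log2, SE; edgeR adjusted p = 0.0257), and the control libraries of day 10, at 36.3, 83.5 and 49.9 CPM, were the lower arm while those of day 13, at 45.1, 112 and 68.1 CPM, were the higher. For Shmt2 the miR-125b effect was 0.39 ± 0.11 higher on day 13 (edgeR adjusted p = 0.0473). Neither was called without the block (edgeR adjusted p = 0.469 and 0.119). The blocked call of Vldlr was lost without replicate 1 or 3, and that of Shmt2 without any 1 number.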

How the results depend on the processing

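In the edgeR fit as designed, without the block, no gene of the list was called in any comparison. Under the alternatives a count could therefore only stay at 0 or rise. With the replicate block the counts of called genes were 3 for miR-125b against control at day 10, 1 after withdrawal, 2 averaged over the 4 conditions, 1 for day 10 against day 2 with miR-125b, 6 for day 13 against day 10 with miR-125b and 2 for the miR-125b effect of day 13 minus day 10. In that order the blocked fit called 8.63%, 1.86%, 6.39%, 4.08%, 13.4% and 3.85% of all genes. DESeq2 gave 3 at day 10, 1 for day 10 against day 2, 3 for day 13 against day 10 and 2 for the difference of effects. Its shares of all genes were 4.3%, 2.25%, 7.59% and 2.37%. When libraries or replicate numbers were left out, with or without the block, the counts ran from 0 to 6 at day 10, 0 to 3 after withdrawal, 0 to 2 for the average, 0 to 1 for day 10 against day 2, 0 to 4 for day 13 against day 10 and 0 to 2 for the difference of effects. All withdrawal comparisons within an arm, their mean and their difference stayed at 0 under every alternative run. For genes of the list called in either edgeR fit, no log2 fold change of that comparison reversed with an unadjusted p under 0.05. Reversal was not checked for the other named genes and comparisons. The cause of these shifts was not tested. Counts limit Aldh1l2, Cbs, Atf3 and Nupr1, with 1 to 4 counts in their lowest library. With 3 libraries in a group, and calls that depend on replicate 1 or 3, the blocked calls rest on few libraries.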
